A study of Arabidopsis thaliana with 24 samples.

Results

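ARL (ARGOS-like, locus AT2G44080, on chromosome 2) is an Arabidopsis gene of organ growth. It was read by 1 probe set, found by the gene's name in the annotation of the Affymetrix ATH1 array, out of 22746 probe sets tested and 22810 in the table. The gene was picked because earlier work on these arrays had shown its level to differ between auxin-treated and other samples. Its own levels and differences are therefore given as a description, with no test.

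The arrays followed the formation of interfascicular cambium, the dividing layer that joins the vascular bundles of a stem into a ring. Excised wild-type stem fragments were cultured on split plates of MS medium, a standard plant culture medium, with or without NAA, a synthetic auxin. Its concentration is not in the labels used here. Cells were then cut out of cryosections by laser capture microdissection, and their RNA went through 2 rounds of amplification. The study sought genes raised specifically in the region where cambium forms.

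All plants were wild type. For every sample the labels give 3 weeks of short days, stem fragments of 1.5 cm and sections of 5 µm. There were 8 groups of 3 arrays, labelled as biological replicates. The untreated groups were the starch sheath, the innermost cortical layer next to the vascular tissue, and the stem tissue apart from sheath and bundles. The medium groups were starch sheath after 2 and after 5 days on MS medium. The NAA groups were starch sheath and stem tissue after 2 days, and established interfascicular cambium and stem tissue after 5 days. No stem tissue on MS medium was among the groups, so in the stem NAA and culture cannot be told apart. At 5 days the NAA sample was cambium and the medium sample starch sheath, so the effects of auxin and of the cells collected cannot be told apart there either. Fewer cells of a type and less RNA per cell cannot be told apart in captured tissue.

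ARL belongs to a small family of plant membrane proteins named after ARGOS, which auxin induces and which prolongs cell division in growing leaves and flowers. ARL is known to enlarge organs mainly through cell expansion, and brassinosteroid, a growth hormone, raises its transcript. Members of the family also lower the plant's sensitivity to ethylene when overexpressed, in concert with RTE1, a regulator of the ethylene receptor ETR1. The other members on the list used here, ARGOS, OSR1 and OSR2, were not analysed here because no probe set carried their names.

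The ARL level, as a normalized log2 intensity, was lowest in the untreated starch sheath and highest in the groups that had received NAA. In untreated starch sheath it was 4.08, 3.3 and 3.73 in replicates 1, 2 and 3 (mean 3.71 ± 0.39, SD, n = 3). In untreated stem tissue it was 5.31, 5.01 and 4.64 (4.99 ± 0.34, SD, n = 3). All 3 stem arrays lay above all 3 sheath arrays. The 3′ minus 5′ signal of the GAPDH control, described further on, was 5.50, 5.12 and 4.6 in stem and 4.83, 3.93 and 4.02 in sheath. It lay higher in stem with some overlap, and 2 of the 3 sheath arrays had a narrower spread of values.

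Culture on medium alone was accompanied by an intermediate level. In starch sheath after 2 days on medium ARL was 6.33, 6.58 and 6.28 (6.40 ± 0.16, SD, n = 3), the tightest of the 8 groups. After 5 days on medium it was 5.07, 6.23 and 4.50 (5.27 ± 0.88, SD, n = 3), the widest of the 8 groups. Each of the 6 medium arrays lay above each of the 3 untreated sheath arrays.

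With NAA every array stood higher still. In starch sheath after 2 days with NAA the level was 9.16, 8.86 and 7.59 (8.53 ± 0.83, SD, n = 3), and in stem tissue at that time it was 9.38, 9.51 and 8.17 (9.02 ± 0.74, SD, n = 3). In the cambium after 5 days with NAA it was 9.32, 9.37 and 8.42 (9.04 ± 0.54, SD, n = 3), and in stem tissue at that time it was 9.30, 8.92 and 9.42 (9.21 ± 0.26, SD, n = 3). The 12 NAA arrays all lay above the 12 other arrays, and the lowest NAA array was 1.01 above the highest of the others.

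**Figure D1:**
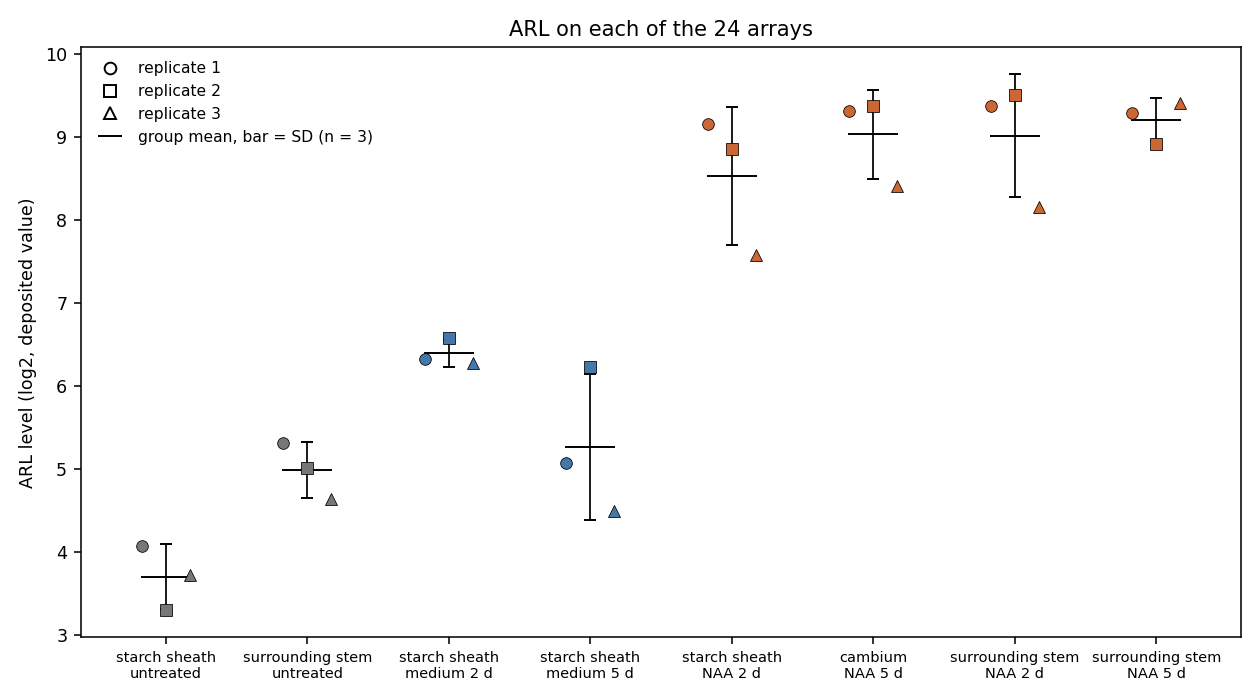
ARL level (log2 intensity) on each of the 24 arrays, by group. Points are single arrays, and bars mark the mean and SD of 3. The untreated sheath lies lowest (mean 3.71), the medium groups between (5.27 and 6.40), and the 4 NAA groups highest (8.53 to 9.21), with no overlap between NAA arrays and the others.

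In order from low to high, the group means ran from untreated sheath to untreated stem, sheath on medium at 5 days, sheath on medium at 2 days, and then the NAA groups: sheath at 2 days, stem at 2 days, cambium at 5 days and stem at 5 days. Neighbours in this order were separated without overlap at 3 steps: untreated sheath to untreated stem (1.28), medium at 5 days to medium at 2 days (1.13), and medium at 2 days to NAA sheath at 2 days (2.14). Untreated stem and medium at 5 days differed by 0.28, less than the larger SD of 0.88, and their arrays overlapped. Within the NAA groups the steps were 0.48, 0.02 and 0.18, all with overlapping arrays.

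NAA-treated tissue exceeded tissue on medium alone at both times. After 2 days NAA-treated sheath exceeded sheath on medium by 2.14 ± 0.49 (SE of the difference) on the log2 scale, or 4.40-fold. Taken by replicate number the differences were 2.83, 2.28 and 1.3. After 5 days cambium exceeded sheath on medium by 3.77 ± 0.60 (SE), or 13.6-fold, with differences by number of 4.25, 3.14 and 3.92. The NAA levels of the 2 times overlapped and differed by 0.50, whereas the level on medium was 1.13 lower at 5 days than at 2 days, with no overlap. Without medium replicate 3 of day 5 that last difference was -0.745. Whether the NAA difference itself changed with time was not tested, because these values chose the gene.

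Ranked among all 22746 probe sets from the most positive difference, ARL stood 70th for NAA over medium at 2 days and 38th at 5 days. For scale, limma called 0.382% of probe sets at 2 days and 3.49% at 5 days at an adjusted p under 0.05. By direction these were 0.229% higher and 0.154% lower with NAA at 2 days, and 2.01% higher and 1.48% lower at 5 days. The balance was not stable: 59.8% of the calls at 2 days were higher with NAA, but 33.3% without medium replicate 1 and 41.0% without medium replicate 3, and at 5 days 57.7% were higher, but 38.3% with the GAPDH control signal as a covariate.

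Relative to untreated sheath, ARL was higher on medium alone and higher again with NAA. Sheath on medium exceeded untreated sheath by 2.69 ± 0.24 (SE) at 2 days, which is 6.46-fold, and by 1.56 ± 0.56 (SE) at 5 days, which is 2.95-fold. After cyclic loess normalization these differences were 1.79 and 0.52. ARL ranked 149th and 786th in those comparisons. Between untreated sheath and NAA the whole span was 4.83 at 2 days (28.4-fold, 5th of all probe sets) and 5.33 in cambium at 5 days (40.2-fold, 13th). In stem tissue NAA with culture exceeded untreated stem by 4.03 at 2 days (16.3-fold, 8th) and by 4.22 at 5 days (18.7-fold, 18th).

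Between captured tissues that had both received NAA the levels of ARL lay close together. Sheath was 0.48 below stem at 2 days, with differences by replicate number of -0.22, -0.65 and -0.58, but the arrays of both groups overlapped. Cambium was 0.18 below stem at 5 days, with differences by number of 0.02, 0.45 and -1.0. In untreated tissue sheath had been 1.28 below stem, 2.43-fold, with no overlap. This difference was -0.58 with the GAPDH control signal as a covariate and -0.57 after cyclic loess normalization, in place of -1.28. With NAA the signal was thus high both in the cambium and in the tissue outside it.

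The spread within groups had a common side. Replicate 3 was the lowest array for ARL in NAA sheath at 2 days (0.95 below its group mean), NAA stem at 2 days (0.85 below), cambium (0.62 below), medium at 5 days (0.77 below) and untreated stem (0.35 below). It was also the lowest on medium at 2 days (0.115 below). In NAA stem at 5 days it was the highest, 0.20 above, and in untreated sheath it was the middle array, 0.03 above. HAT2, GH3.3 and IAA29, auxin-induced genes described further on, were also lowest in replicate 3 in both 2-day NAA groups.

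A complete separation of NAA arrays from all others was rare on the array. Only 16 of 22746 probe sets (0.0703%) had all 12 NAA arrays above the 12 others, and 8 of these carried a single gene name. ARL's gap of 1.01 was the 2nd widest of the 16. The widest, 3.02, belonged to a probe set with no gene name here. The next named ones were AT1G76470 with a gap of 0.53, OSM34, an osmotin-like protein gene, with 0.52, and AT5G22460 with 0.48.

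A stepwise order of non-overlapping groups, with untreated sheath below both medium groups and these below NAA sheath and cambium, held for 8 probe sets (0.0352%). Of these, 4 also had all NAA arrays above all others, 0.0176% of all, and 2 of the 4 were named, ARL and AT4G01870. Both counts are descriptions of a pattern that ARL was known to show. When the arrays were brought to equal distributions by quantile normalization, 12 probe sets had all NAA arrays above the rest, ARL with a gap of 0.46, and with cyclic loess normalization 12 had them so, ARL with 0.51.

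A control signal moved with the level of ARL in the arrays without NAA. The 3′ minus 5′ signal of the GAPDH control probe sets can grow as amplified RNA is shortened from its 5′ end. It was 3.93 to 5.50 on untreated arrays, 5.52 to 6.25 on medium arrays at 5 days and 6.71 to 7.43 on medium arrays at 2 days. This is also the order of ARL in these groups. On every array the 5′ signal lay below 3.09, the median of all values, so the measure followed the 3′ signal. That signal was 6.61 to 8.15 on untreated arrays and 9.39 to 9.98 on medium arrays at 2 days. Shortened RNA and a higher GAPDH level cannot be told apart in it. With this measure as a covariate, the ARL difference between medium and untreated sheath was 0.14 in place of 2.69 at 2 days and 0.24 in place of 1.56 at 5 days. The level on medium at 5 days was then 0.09 above that at 2 days, in place of 1.13 below. The NAA differences from untreated tissue were 2.98 in sheath at 2 days and 3.25 in cambium, in place of 4.83 and 5.33. In stem they were 2.7 and 2.68 at 2 and 5 days, in place of 4.03 and 4.22. The untreated arrays did not overlap in this measure with the medium or NAA arrays, nor did the 2 medium groups with each other. Its part in these differences and that of culture and its length can therefore not be told apart.

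The difference between NAA and medium did not shrink in that way at 2 days. NAA sheath at 2 days had GAPDH values of 6.14 to 6.67, below all medium arrays of that time, and an ARL level above them. With the covariate the NAA difference was 2.84 at 2 days and 3.02 at 5 days, against 2.14 and 3.77 without it. In the cambium the measure was 6.17 to 7.15, higher on average than in the medium group at 5 days. The parts of RNA quality and of the GAPDH level in the medium difference were not tested further.

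**Figure D2:**
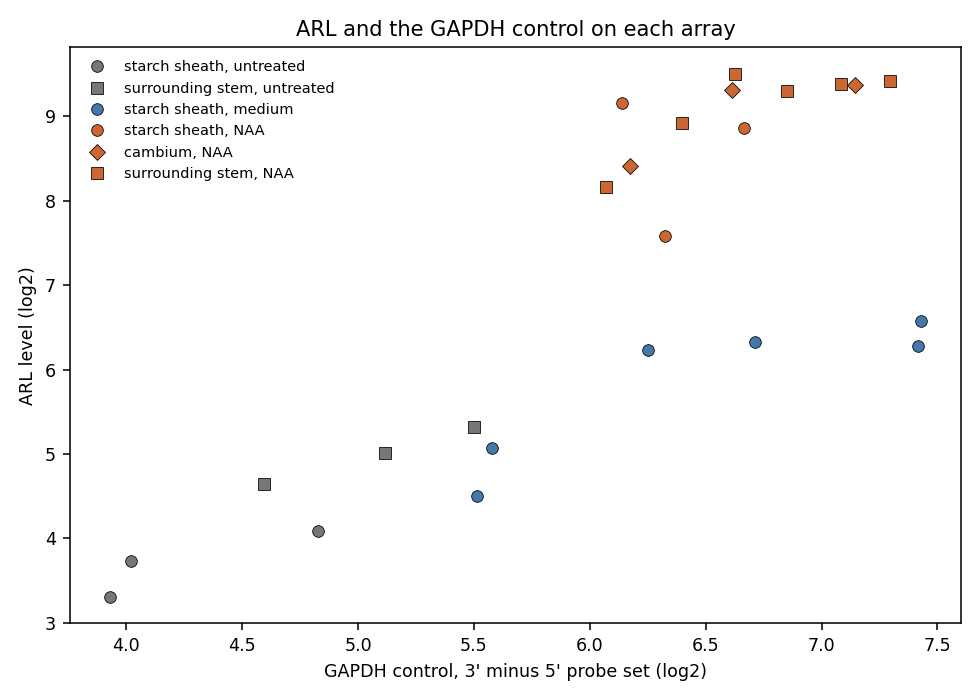
ARL level (log2 intensity) against the 3′ minus 5′ signal of the GAPDH control (log2 difference) on the 24 arrays, with tissue by symbol and treatment by colour. Arrays without NAA lie along a rising band from untreated (3.93 to 5.50 on the horizontal axis) to medium at 2 days (6.71 to 7.43), and the NAA arrays, at 6.07 to 7.29, all lie above that band.

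Array spread also differed. In 3 arrays, untreated sheath replicates 2 and 3 and untreated stem replicate 3, the values were narrower (SD 0.98 to 1.10, against 1.24 to 1.59 in the other 21). Leaving them out leaves 1 array of untreated sheath, replicate 1, so the values that follow rest on it alone. Against that array ARL on medium was higher by 2.31 at 2 days and 1.19 at 5 days. The arrays left out had no NAA and lay below all NAA arrays. Their removal could therefore not change the separation of NAA arrays from the rest.

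Early auxin response genes, with GH3.3 and HAT2 as named controls, served as a check of the NAA treatment. Of the 54 genes on a list of early auxin response genes, 15 had a named probe set. At 2 days 4 of the 15 rose with NAA over medium and 11 did not pass the test, beside 0.229% of all probe sets called higher. The median difference of the 15 was 0.06, against -0.06 for all probe sets.

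GH3.3, which encodes an enzyme that conjugates auxin to amino acids, was 2.57, 2.69 and 2.34 on medium at 2 days and 8.37, 9.62 and 6.53 in NAA sheath. Its arrays did not overlap, and the difference was 5.64 ± 0.83 (SE, limma adjusted p = 0.00537). HAT2, an HD-ZIP II transcription factor gene induced by auxin, was 5.37, 6.18 and 5.31 on medium and 9.49, 10.50 and 8.03 with NAA, again without overlap (3.71 ± 0.66, adjusted p = 0.0181). IAA29, which encodes an Aux/IAA repressor of auxin response, rose by 2.70 ± 0.56 (adjusted p = 0.0375). AT1G14130 rose by 1.34 ± 0.17 (adjusted p = 0.00198).

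Without NAA sheath replicate 2 the adjusted p was 0.0521 for GH3.3, 0.129 for HAT2 and 0.258 for IAA29, and the count of called probe sets fell from 87 to 10. Leaving out any medium array put HAT2 at 0.0524 to 0.0561, and IAA29 lost its call without any array but NAA replicate 3 (0.0779 to 0.258). Fitted on the compared groups alone, none of the 4 passed, with adjusted p of 0.0686 for GH3.3, 0.106 for HAT2, 0.163 for IAA29 and 0.0791 for AT1G14130.

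At 5 days GH3.3 and HAT2 rose again and the other 13 of the 15 did not pass the test. GH3.3 was 2.20, 2.56 and 2.37 on medium and 8.33, 5.95 and 6.58 in cambium (4.58 ± 0.83, adjusted p = 0.00286). HAT2 rose by 3.11 ± 0.66 (adjusted p = 0.00989). The median of the 15 was 0.15, against 0.01 for all probe sets, of which 2.01% were called higher. Without cambium replicate 2 the adjusted p of HAT2 was 0.0644, without medium replicate 2 it was 0.069, and with the GAPDH covariate 0.0709.

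ARL differed from GH3.3 and HAT2 in where the medium groups lay relative to untreated sheath. GH3.3 had been 5.75, 4.90 and 4.03 in untreated sheath, above all its values on medium, and HAT2 had a mean of 7.79 there, against 5.62 and 6.08 on medium at 2 and 5 days. The medium differences of HAT2 were -2.17 (adjusted p = 0.0646) at 2 days and -1.71 (0.126) at 5 days, and those of GH3.3 were -2.36 (0.114) and -2.51 (0.0764), none of which passed the test. After quantile or cyclic loess normalization all 4 of these passed it, with adjusted p from 0.00399 to 0.0474. For ARL the same differences were positive, 2.69 and 1.56. They were smaller after cyclic loess normalization and far smaller with the GAPDH covariate, as given above.

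The list as a whole lay on the negative side on medium, as did most of the array. None of the 15 was called at 2 days, and 4 had an unadjusted p under 0.05, beside 4472 of 22746 probe sets. None had a positive difference, beside 9241 of all probe sets, and the median was -0.11, against -0.07 for all. At 5 days 1 of 15 was positive, beside 8972 of all probe sets, and the median was -0.27, against -0.08 for all. IAA20, IAA31, IAA33, LBD16 and LBD29 had no group mean above 3.09, the median of all values. Across the array 4.94% of probe sets were called at 2 days, 3.97% higher and 0.967% lower on medium. At 5 days 6.34% were called, 4.32% higher and 2.02% lower. This balance turned with the processing. At 2 days 80.4% of the calls were higher on medium, but 47.0% without untreated sheath replicate 1, 27.9% without the 3 narrow arrays and 18.4% with the GAPDH covariate. At 5 days 68.1% were higher, but 49.5% after cyclic loess normalization, 44.6% with array weights, 42.3% without untreated sheath replicate 1, 35.5% with the covariate and 24.9% without the narrow arrays.

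**Figure D3:**
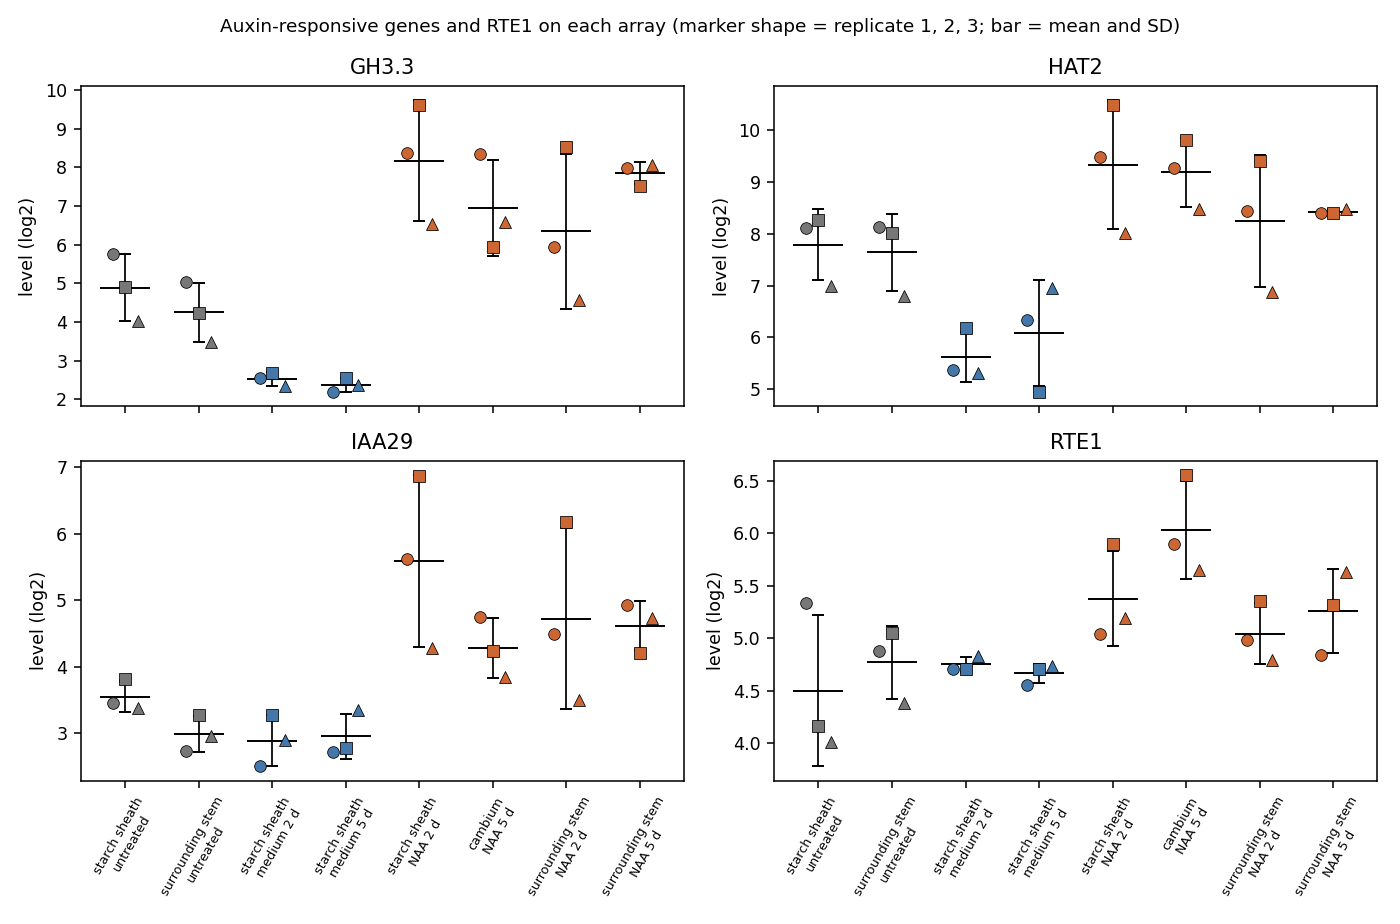
Levels (log2 intensity) of GH3.3, HAT2, IAA29 and RTE1 on each array, by group. Points are single arrays, their shape gives the replicate, and bars mark the mean and SD of 3. GH3.3 and HAT2 have lower means on medium (2.53 and 5.62 at 2 days) than in untreated sheath (4.89 and 7.79), and RTE1 is highest in cambium (mean 6.03).

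Ethylene signalling was represented by 4 of 38 listed genes: RTE1, RTH, EIN3 and ETP2. RTE1, the known partner of the ARGOS family, was 4.56, 4.70 and 4.73 in sheath on medium at 5 days and 5.90, 6.55 and 5.65 in cambium. The cambium arrays all lay above the medium arrays, and RTE1 rose by 1.37 ± 0.32 (SE, adjusted p = 0.0184). Leaving out cambium replicate 2 gave an adjusted p of 0.127, each medium array 0.0511 to 0.0771, and the GAPDH covariate 0.131.

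At 2 days RTE1 was 4.71, 4.71 and 4.83 on medium and 5.04, 5.89 and 5.19 with NAA, a difference of 0.63 that did not pass the test (adjusted p = 0.527). In stem tissue with NAA its means were 5.05 and 5.26 at 2 and 5 days, against 4.77 untreated. Among the 4 listed genes RTE1 was the only one called in any of the 6 comparisons. The median of the 4 was 0.37 at 2 days and -0.13 at 5 days for NAA over medium.

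Brassinosteroid synthesis and signalling was represented by only 2 of 40 listed genes, so most of this pathway was not measured by name. These were BRL1, a receptor kinase related to the brassinosteroid receptor, and CES, a transcription factor of brassinosteroid response. Neither was called in any of the 6 comparisons, and CES had no group mean above 3.09. BRL1 had the smaller p in NAA over medium, with 0.72 at 2 days (adjusted p = 0.306) and 0.38 at 5 days (adjusted p = 0.661).

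Wall loosening and cell expansion, the process through which ARL is known to act, had 22 of 49 listed genes measured. With NAA at 2 days none of the 22 was called, and the median was -0.14, against 0.382% called and a median of -0.06 over all probe sets. Of the 22, 1 had an unadjusted p under 0.05, beside 2287 of 22746 probe sets. EXPA7, EXPA8, EXPA9, EXPB1, EXLA2, XTH16, XTH19, XTH20 and XTH21 had no group mean above 3.09, so a change in them could be missed. XTH16, a xyloglucan-modifying enzyme gene with group means of 2.38 to 2.73, had the smallest p (-0.33, adjusted p = 0.375). At 5 days 1 of 22 fell, none rose, and the median was -0.02, against 1.48% lower, 2.01% higher and a median of 0.01 over all probe sets. That gene, XTH18, of the same enzyme family, was 3.71, 2.69 and 3.81 on medium and 2.19, 2.27 and 2.46 in cambium (-1.10 ± 0.26, adjusted p = 0.0202).

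XTH18 had levels near or under the median of all values, 3.09, in every group but that one, and the call was lost when cambium replicate 1 or 2 or medium replicate 1 or 3 was left out (adjusted p 0.0682 to 0.121), with the GAPDH covariate (0.112) and on the compared groups alone (0.153). On medium against untreated sheath, EXGT-A3 (also named XTH27), another member of that enzyme family, rose at 5 days by 2.31 ± 0.36 (adjusted p = 0.000926), from 6.53, 5.85 and 5.76 to 8.53, 8.47 and 8.06. Its difference was 1.19 after cyclic loess (adjusted p = 0.0311) and 1.49 after quantile normalization (adjusted p = 0.0022), and with the GAPDH covariate its adjusted p was 0.0972. It was the only one of the 22 called on medium, beside 4.32% of all probe sets called higher at 5 days.

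Organ growth by cell proliferation, the process tied to ARGOS itself, had 10 of 39 listed genes measured, and none was called in any of the 6 comparisons. The medians for NAA over medium were -0.07 at 2 days and 0.05 at 5 days. JAG, TCP15 and NGA1 had no group mean above 3.09. JAG, a zinc finger gene of organ growth, had the smallest p at 2 days (-0.30, adjusted p = 0.515), and SAMBA, a regulator of the anaphase-promoting complex, had it on medium at 2 days (0.59, adjusted p = 0.126). CYP78A9, a cytochrome P450 gene of organ size, had it on medium at 5 days (-0.45, adjusted p = 0.137).

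Over all 5 lists together, 53 of 220 genes were measured. NAA over medium called 4 at 2 days and 4 at 5 days, beside 0.382% and 3.49% of all probe sets. Medium against untreated sheath called none at 2 days by limma and 1 at 5 days, beside 4.94% and 6.34% of all probe sets. At 2 days 11 of the 53 had an unadjusted p under 0.05, beside 4472 of 22746 probe sets. Sheath against stem with NAA at 2 days called 1, AT1G14130 (0.91 ± 0.17, adjusted p = 0.0248), where 0.246% of probe sets were called, 0.0484% higher and 0.198% lower in sheath. Its adjusted p was 0.0544 with the replicate number as a block, and 0.052 to 0.215 without single arrays other than sheath replicate 3. Cambium against stem at 5 days called none, and 1 had an unadjusted p under 0.05, beside 1201 of 22746 probe sets. Across the array 0.356% of probe sets were called there, 0.251% higher and 0.106% lower in cambium. Of these calls 70.4% were higher in cambium, but 38.2% without stem replicate 1.

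**Figure D4:**
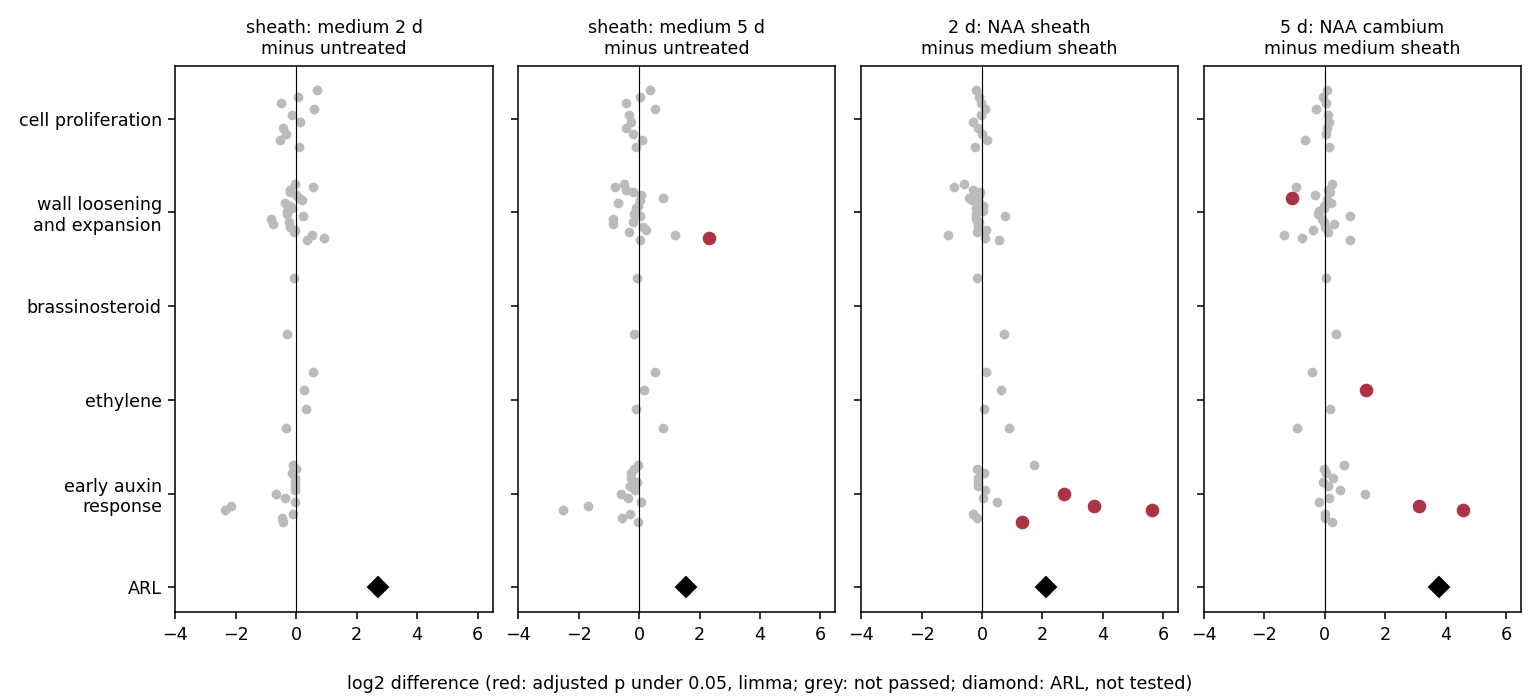
Differences (log2) of the 53 listed genes, by list, for medium over untreated sheath and for NAA over medium at 2 and 5 days. Red points passed the limma test at an adjusted p under 0.05, grey ones did not, and the diamond is ARL, not tested. Among the listed genes GH3.3 (5.64 and 4.58) and HAT2 (3.71 and 3.11) lie farthest out with NAA.

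Correlation with ARL over the 8 group means gave a further description of which genes ran alongside it. The groups share the arrays, the normalization and the GAPDH difference, so no test is attached. Among the listed genes the highest Pearson r belonged to WES1, a GH3-family auxin-conjugating enzyme gene (0.84), RTE1 (0.81), IAA29 (0.77) and GH3.3 (0.74). HAT2 had 0.59.

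Among 8244 named probe sets with a highest group mean above 3.09, 75 had an r above 0.9 with ARL and 44 one below -0.9. The 8 highest were AT2G26240 (0.983), XPO1B (0.982), AT4G17070 (0.982), LPR2 (0.980), AT1G74240 (0.977), AT5G27760 (0.977), AT3G07590 (0.972) and AT3G55605 (0.966), and the 9th stood at 0.9645. XPO1B encodes an exportin that carries proteins out of the nucleus. LPR2 encodes a multicopper oxidase of the root response to low phosphate.

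These genes ran alongside ARL but all over a shorter range. The group means of ARL spanned 5.51, those of AT5G27760 4.43, those of AT4G17070 3.14 and those of XPO1B 1.31. The others spanned from 0.59 (AT3G07590) to 1.59 (AT2G26240). The group means of AT3G07590 were 2.54 to 3.13, near or under the median of all values, 3.09. AT5G27760 was 4.31, 5.77 and 4.69 in sheath on medium at 5 days and 7.48, 7.17 and 7.65 in cambium, and it also had all NAA arrays above all others, by 0.25. XPO1B was 4.29, 4.38 and 4.1 on medium and 5.16, 5.65 and 4.58 in cambium, also without overlap. At 2 days its arrays overlapped, with 4.56, 4.40 and 4.44 on medium and 4.33, 5.32 and 4.57 in NAA sheath. By limma, XPO1B passed for NAA over medium at neither time (adjusted p = 0.804 at 2 days and 0.147 at 5 days). AT5G27760 passed at 5 days (adjusted p = 0.0341) but not at 2 days (0.206). None of the other genes most like ARL passed at either time. All were picked for likeness to ARL, so these p-values are no separate evidence.

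Over the 24 single arrays the r of the 8 genes with ARL was 0.75 to 0.92. Within groups, after the group means were taken off, it was -0.05 to 0.63, so most of the likeness lay between groups. Only 3 of the 8 were also among the highest 8 when single arrays were correlated.

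**Figure D5:**
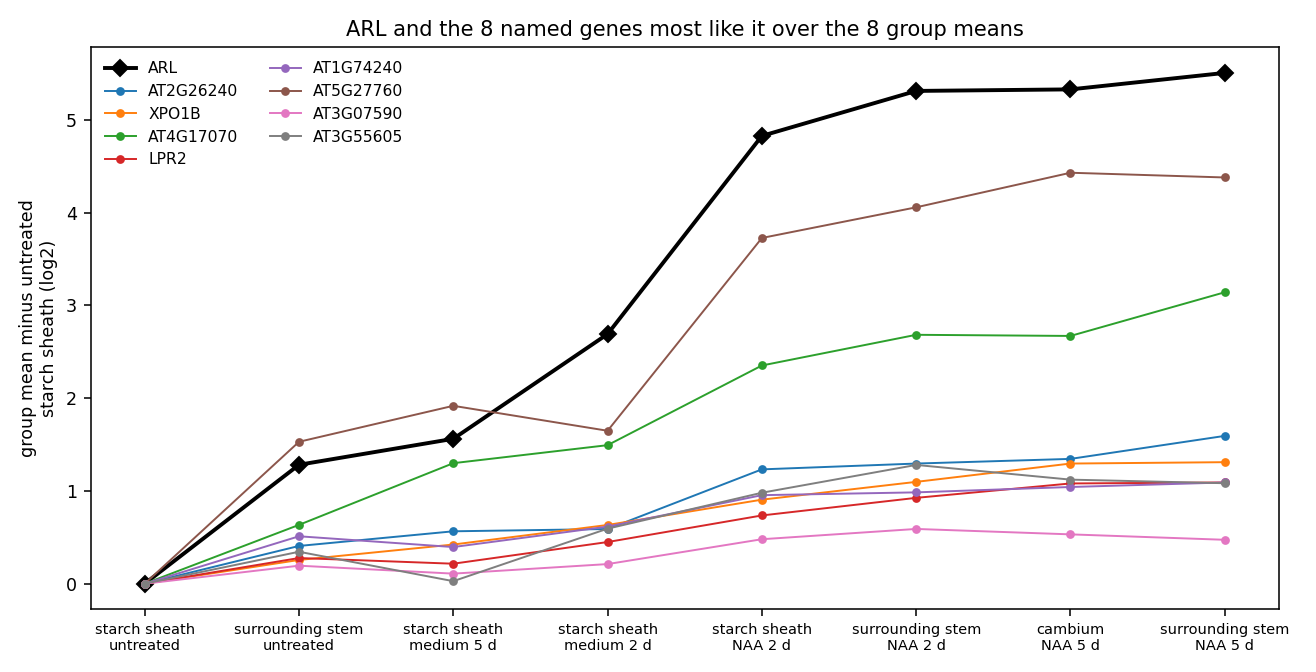
Group means (log2 intensity) of ARL and of the 8 genes with the highest Pearson r with it over the 8 groups, each shown as the difference from its own mean in untreated sheath, with groups in the order of ARL. ARL and the 8 genes are lowest in untreated sheath and higher with NAA than on medium, and ARL spans the widest range (5.51).

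Genes next to ARL on chromosome 2, in the order of the RefSeq TAIR10.1 annotation, differed among themselves in pattern. Of 5 genes on each side, 5 had a named probe set. The adjacent gene on one side, AT2G44090, had group means of 4.14 to 4.45 in all 8 groups, and its r with ARL over the group means was 0.03. None of the 5 was called in NAA over medium at either time, beside 0.382% and 3.49% of all probe sets.

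On medium 2 of the 5 were called higher at both times, beside 3.97% and 4.32% of all probe sets. AT2G44120, the 5th gene beyond ARL, was 5.04, 3.13 and 3.54 in untreated sheath and 7.51, 8.15 and 8.33 on medium at 2 days (4.1 ± 0.58, adjusted p = 0.000359), and it rose by 3.56 ± 0.58 at 5 days (adjusted p = 0.00129). With NAA it stayed near the medium level, 0.17 above at 2 days and 0.08 below at 5 days (adjusted p = 0.94 and 0.996). COS1, 4 genes away on the other side, rose on medium by 1.21 at 2 days (adjusted p = 0.002) and 0.75 at 5 days (adjusted p = 0.0411). The GAPDH control signal did not overlap between untreated and medium arrays. Its part in these rises and that of culture cannot be told apart. Untreated sheath replicates 2 and 3, the lower ones for AT2G44120, were narrow arrays.

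Markers of the captured tissues were sparsely covered, with 15 of 70 listed genes measured and none of 16 xylem and fibre or 12 epidermis markers named. Of the 3 measured sheath markers, JKD, a zinc finger gene of the ground tissue, was 3.21, 4.25 and 4.48 in untreated sheath and 2.80, 3.01 and 3.12 in untreated stem. AT1G72490 also had a higher mean in untreated sheath (2.70 against 2.39), while AT5G41920 had a lower one (4.09 against 4.34). JKD lay at means of 2.74 to 3.1 in the other groups, near the median of all values, and fell on medium at 5 days (-1.15 ± 0.27, adjusted p = 0.0165). AT1G72490 and AT5G41920 were not called there. The 2 higher JKD arrays of untreated sheath, replicates 2 and 3, were narrow arrays. Replicate 1 (3.21) lay near the medium arrays at 5 days, which were 2.55, 2.82 and 3.12. MOL1, a receptor kinase gene of the cambium, was 4.60, 6.33 and 3.13 in cambium against 3.13, 3.02 and 2.83 on medium at 5 days (adjusted p = 0.0906), so 1 cambium array lay at the level of the medium arrays.

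Photosynthetic genes, markers of green cortex, moved in the 5-day comparison in which ARL differed most from medium. Of 8 measured markers of 15 listed, 4 fell and 1 rose in cambium against sheath on medium, beside 1.48% of all probe sets called lower and 2.01% higher. RCA, which encodes Rubisco activase, fell (-2.05, adjusted p = 0.00407). The summed signal of the 8, as log2, was 9.08 to 10.05 in cambium, 9.14 to 9.68 in stem with NAA at 5 days and 10.97 to 11.68 on medium at 5 days. At 2 days it was 10.89 to 11.56 in NAA sheath and 10.38 to 10.76 on medium, the opposite order, while ARL was higher with NAA at both times. The summed signal of 3 phloem markers of 11 listed was 6.85 to 7.08 in cambium and 5.62 to 5.99 on medium at 5 days, and none of the 3 was called. The part of captured cell types in the 5-day difference of ARL was not tested.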

How the data were processed

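RNA of 24 laser-captured samples was hybridised to ATH1 arrays. The authors deposited 1 table of log2 intensities, from 1.73 to 13.51. RMA and limma are named, without versions, per the submitters' processing notes; the log base is not written in the table and was read from its range. Depth does not apply to arrays, and 3 arrays a group limit the precision.

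The 64 control probe sets were left out, and 1 mean per group was fitted over 22746 probe sets and all 24 arrays with limma 3.58.1 (R 4.3.3, statmod 1.5.0), with 2-sided moderated tests and Benjamini-Hochberg adjustment over all probe sets (prior 2.55 and residual 16 degrees of freedom). The script was tested on simulated data. Of the probe sets, 13513 had 1 gene name, 503 several and 8730 none here; 13436 matched RefSeq TAIR10.1 by locus. Promoter and protein sequences were not analysed here.

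The gene, lists and comparisons were chosen with earlier results of these data known. Named were ARL, HAT2, GH3.3, up to 4 called members of each list (or the one with the smallest p), the 8 genes most like ARL, and tissue markers; neighbours of ARL and genes sharing its array order were added later, as were 8 of the 14 ARL differences. Each p-value sets a difference against the spread between arrays within groups, pooled over the 8 groups.

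Same-numbered arrays deviated together, each correlation above 0.1, only in sheath against stem with NAA at 2 days (0.126, 0.507 and 0.327); in the other comparisons they share only a number. Alternatives changed the normalization, arrays, filter, prior, weights, covariate and likeness measure.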

Additional observations from a re-analysis of the deposited data

Results flagged for a closer look

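AT1G14130, a member of the early auxin response list, differed between times in its response to NAA over medium: the difference at 5 days minus that at 2 days was -1.12 ± 0.24 (SE, limma interaction, adjusted p = 0.0292). Its level was 4.35, 4.67 and 4.05 in NAA sheath at 2 days against 2.89, 2.92 and 3.24 on medium, and 3.91, 3.4 and 3.62 in cambium at 5 days against 3.55, 3.28 and 3.43 on medium. At 5 days the arrays of both groups overlapped, and the captured cell type changed along with the time. This interaction called 1.01% of all probe sets, 0.62% with a higher and 0.391% with a lower value at 5 days. For ARL no such test was made, since its differences chose it.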

How the results depend on the processing

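Of 66 alternative values for the 6 planned ARL differences, 59 moved by less than 1 SD. The GAPDH covariate gave 2.84 and 3.02 for NAA over medium at 2 and 5 days, and 0.14 and 0.24 for medium over untreated sheath. Cyclic loess gave 1.79 and 0.52 for the latter, and leaving out the 3 narrow arrays 2.31 at 2 days. Without single arrays the ranges were 1.82 to 2.61 and 3.38 to 4.25 for NAA over medium, 2.49 to 2.88 and 1.08 to 1.95 for medium over untreated sheath, -0.91 to -0.01 for sheath against stem and -0.35 to 0.13 for cambium against stem. Over all 14 ARL differences, 4 of 154 values changed sign, all in differences between groups on medium or between groups with NAA. Listed genes called for NAA over medium at 2 days numbered 4, but 8 with the GAPDH covariate, 0 with only the compared groups and 1 to 4 without single arrays; at 5 days they numbered 4, but 2 with the covariate, 8 with array weights and 1 to 4 without single arrays. On medium at 2 days 0 were called, but 2 each with cyclic loess, quantile normalization, the covariate or without the narrow arrays, 1 with the dim filter, 6 with array weights and 0 to 10 without single arrays, the 10 without untreated sheath replicate 1. Without the narrow arrays untreated sheath is 1 array, assumed to vary like the other groups. On medium at 5 days 1 was called, but 4 each with cyclic loess and quantile normalization, 0 with the covariate, 10 with array weights, 3 with a trended robust prior and 1 to 9 without single arrays, the 9 again without untreated sheath replicate 1. For sheath against stem 1 was called, but 0 with only the compared groups, a 2-fold minimum or the replicate block, and 0 to 1 without single arrays; for cambium against stem 0 to 0. The replicate block called 1 listed gene, HAT2 (adjusted p = 0.0355), on medium at 2 days and changed no other call of a listed gene beyond these. Over all probe sets, the 87 calls for NAA over medium at 2 days became 1782 with the covariate, 495 with array weights, 2 with only the compared groups and 10 without NAA replicate 2; the 794 at 5 days became 3440 with array weights and 406 without cambium replicate 2. Without untreated sheath replicate 1 the 1124 and 1443 calls on medium became 4376 and 5616. Of the 8 genes most like ARL, 3 were shared with the choice by single arrays, 3 by Spearman's rho, and 4 each after quantile normalization, cyclic loess or without the narrow arrays. The share of calls in each direction moved with these settings, as given beside the calls above. The causes were not tested. Signal over background is not in the table, so levels near 3.09 may be background.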
